A study of Mus musculus with 6 samples.

Results

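The genes described here are 10 genes of Notch signalling, taken by their symbols from the 22544 genes of the table. They comprise the receptors Notch1, Notch2 and Notch3, the ligands Dll1, Dll3 and Jag1, and the HES/HEY transcription factor genes Hes1, Hes5, Hes6 and Hey1. Each symbol matched 1 row, and all 10 had been tested by the authors. RNA had been sequenced from neurons of the upper cortical layers in Swiss Webster mice aged 5 days (P5) and 3 days (P3) after birth, with 3 biological replicates at each age. Green fluorescent protein (GFP) marked these neurons at both ages, and they had been isolated by fluorescence-activated cell sorting; neither how GFP was introduced nor whether animals were pooled is given in the sources used here. The series is concerned with how neurons come to leave the cell cycle, and its single comparison is P5 against P3.

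Notch receptors are membrane proteins that are cut when a ligand on a neighbouring cell binds them. The released intracellular part joins the DNA-binding protein RBPJ and Mastermind coactivators in the nucleus and turns on HES and HEY genes, whose products repress proneural genes. In the developing cortex this pathway is known for holding radial glia in the progenitor state and for favouring astrocytes later, and Notch is also known to act in neurites of postmitotic neurons, in vessels and in mural cells.

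Promoter sequences are shown for Hes5, a direct Notch target, and for its relative Hey2, because both windows hold the RBPJ core motif GTGGGAA at 2 places. The motif was searched on both strands of RefSeq windows of 250 bases before to 50 after an annotated start (build GRCm38.p6). A window was found for 8 of the 10 genes (not Hes1 and Hey1). Of 15 genes looked up, counting the other HES/HEY genes, 10 had a window and 3 a match, namely Hes5, Hey2 and Hes7. Over all 32851 windows, 6.38% held at least 1 match and 0.256% at least 2. Both sequences run 5′ to 3′ to 10 bases past the start, with matches in capitals, as GTGGGAA or its reverse complement.
Hes5 (chr4:154960673-154960932, plus strand): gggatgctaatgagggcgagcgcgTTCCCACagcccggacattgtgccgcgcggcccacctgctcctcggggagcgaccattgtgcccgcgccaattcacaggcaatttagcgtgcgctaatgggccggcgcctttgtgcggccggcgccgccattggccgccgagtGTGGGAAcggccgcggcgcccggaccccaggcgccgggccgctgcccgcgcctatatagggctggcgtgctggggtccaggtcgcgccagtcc
Hey2 (chr10:30842774-30843033, minus strand): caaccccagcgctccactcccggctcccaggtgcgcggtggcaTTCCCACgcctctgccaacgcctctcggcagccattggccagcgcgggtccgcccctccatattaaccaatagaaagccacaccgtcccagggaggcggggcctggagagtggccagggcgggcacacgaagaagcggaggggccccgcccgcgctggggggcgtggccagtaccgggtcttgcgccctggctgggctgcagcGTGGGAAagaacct
The Hes5 matches begin at -226 on the opposite strand and at -83 on the gene's own strand, counted from the start. Those of Hey2 begin at -207 on the opposite strand and at -4 on its own strand. In Notch1, Notch2, Notch3, Dll1, Dll3, Jag1 and Hes6 these letters were not in the windows. A match is a description of the sequence and not a site of binding. The expression data show the 2 genes with paired matches on opposite sides of 0. Hes5 had 13.8 FPKM at P5 and 9.12 at P3, while Hey2 had 1.72 FPKM at P5 and 8.35 at P3, and neither difference passed the test.

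FPKM, the unit of all levels below, scales the fragments of a gene to its transcript length and to the library total. The table gives 1 value per age, pooled by the authors, so levels carry no error of their own, and depth is unknown. Ratios divide P5 by P3 and are on the log2 scale, each with a standard error (SE) derived from the test statistic in the authors' deposited table. None of the 10 genes passed the authors' Cuffdiff test, whose q in the authors' deposited table was 0.999988 for each. The background for that count is 0% of 12865 tested genes called at q = 0.05. At an unadjusted p under 0.05 in the authors' deposited table, 0 of the 10 genes were called, against 0.770% of all tested genes. After the statistic was divided by its robust spread over all genes, 0.66, again 0 of the 10 passed at a Benjamini-Hochberg q of 0.05, against 0.0244% of the 12313 genes that were tested and had FPKM above 0 at both ages. Ratios, and shares or medians of ratios, refer to these 12313 genes wherever all genes are named below.

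The sorted material was checked against marker genes, since Notch genes are used by several cell types. All 10 upper-layer neuron markers reached 1 FPKM at P5 and at P3, among them Mef2c (226 FPKM at P5 and 156 at P3) and Rorb (152 at P5 and 119 at P3). Of 9 pan-neuronal markers in the table, 9 reached 1 FPKM at P5 and 7 at P3, led by Stmn2 (758 at P5 and 332 at P3) and Tubb3 (155 at P5 and 75.6 at P3). Over all 22544 genes, 11273 reached 1 FPKM at P5 and 10226 at P3, so this level alone does not identify a cell type. Markers of other cells reached it as well. All 10 astrocyte markers reached 1 FPKM at P5 and 9 did at P3, with Aldoc at 773 FPKM at P5 and 767 at P3 and Slc1a3 at 758 at P5 and 1088 at P3. All 10 radial glia markers did so at both ages, with Fabp7 at 4272 FPKM at P5 and 5388 at P3 and Sox9 at 143 at P5 and 252 at P3. In such pooled RNA, fewer cells of a type and less RNA per cell cannot be told apart.

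Among receptors, Notch2 was by far the most abundant in level. It had 99.9 FPKM at P5 and 181 FPKM at P3, and its log2 ratio was -0.86 (SE 1.95, 95% interval -4.67 to 2.96). Notch2, at mm9 chr3:97817461-97954290, is one of the Notch receptors of radial glia and astrocytes. Its level exceeded that of 97.8% of all rows at P5 and of 98.9% at P3. Notch1, the receptor best known for maintaining neural progenitors, lies at mm9 chr2:26313422-26359342. It had 5.58 FPKM at P5 and 7.18 FPKM at P3, with a log2 ratio of -0.36 (SE 0.90, interval -2.13 to 1.40), the narrowest interval of the 10 genes. Notch2 FPKM was thus 17.9 times that of Notch1 at P5 and 25.2 times at P3. Notch3, a receptor known from the smooth muscle cells and pericytes of vessels, lies at mm9 chr17:32257838-32303797. It had 1.18 FPKM at P5 and 0.228 FPKM at P3, and a log2 ratio of 2.37 (SE 1.97, interval -1.49 to 6.24), or 0.83 with a pseudocount of 1 FPKM. Its p in the authors' deposited table, 0.229, was the lowest of the 10 genes. Of the receptor total including Notch4, which came to 107 FPKM at P5 and 189 FPKM at P3, Notch2 made up 93.5% at P5 and 96.1% at P3. Receptor RNA at both ages was therefore nearly all Notch2 by this measure.

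Among ligands, Jag1 stood where Notch2 did among receptors. Jag1 encodes Jagged1, a membrane ligand of the Serrate type, at mm9 chr2:136907187-136942256. It had 38.9 FPKM at P5 and 83.4 FPKM at P3, with a log2 ratio of -1.10 (SE 1.35, interval -3.74 to 1.54), the lowest ratio of the 10 genes. Dll1, the Delta ligand by which neuroblasts activate Notch in neighbouring progenitors, had 4.67 FPKM at P5 and 4.97 FPKM at P3 (log2 ratio -0.09, SE 1.22, interval -2.48 to 2.30). Its 2 values were the closest pair among receptors and ligands. Dll3, a divergent Delta protein that does not activate receptors on other cells and is known to inhibit Notch within its own cell, had 1.01 FPKM at P5 and 0.757 FPKM at P3. Its ratio of 0.41 had the largest SE of the 10 genes, 2.60, and an interval from -4.69 to 5.52. Jag1 FPKM was 8.34 times that of Dll1 at P5 and 16.8 times at P3. Over the 5 canonical ligands the summed level was 45.8 FPKM at P5 and 89.7 FPKM at P3, of which Jag1 made up 84.9% at P5 and 93.0% at P3. Both summed levels, of receptors and of ligands, were lower at P5, as each rests mainly on a single gene.

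The HES/HEY genes differed less from each other in level than receptors or ligands did. Hes6 was the most abundant, with 28.3 FPKM at P5 and 19.96 FPKM at P3 (log2 ratio 0.50, SE 1.09, interval -1.64 to 2.65). It is grouped here by family, since Hes6 protein is known to oppose Hes1 and to promote neuronal differentiation rather than to carry out Notch repression. Hes5, a direct target in cortical progenitors and astrocytes, had the log2 ratio farthest from 0 among the 4, at 0.60 (SE 1.31, interval -1.98 to 3.17) for the FPKM given beside its promoter. Hes1, the other main effector of Notch in progenitors, had 6.02 FPKM at P5 and 4.93 FPKM at P3 (log2 ratio 0.29, SE 1.66, interval -2.96 to 3.54). Hey1, a target that glia, progenitors and vessels share, had 9.76 FPKM at P5 and 9.17 FPKM at P3 (log2 ratio 0.09, SE 1.24, interval -2.34 to 2.52). All 4 genes had higher FPKM at P5, in steps smaller than their SE. When ratios were centred on the median of all genes with a ratio, 0.13, the ratio of Hey1 was -0.04 and 3 of the 4 remained above 0. Hes5 FPKM was 2.29 times that of Hes1 at P5 and 1.85 times at P3, and Hes6 FPKM 4.70 times that of Hes1 at P5 and 4.05 times at P3, so their order was the same at both ages.

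**Figure D1:**
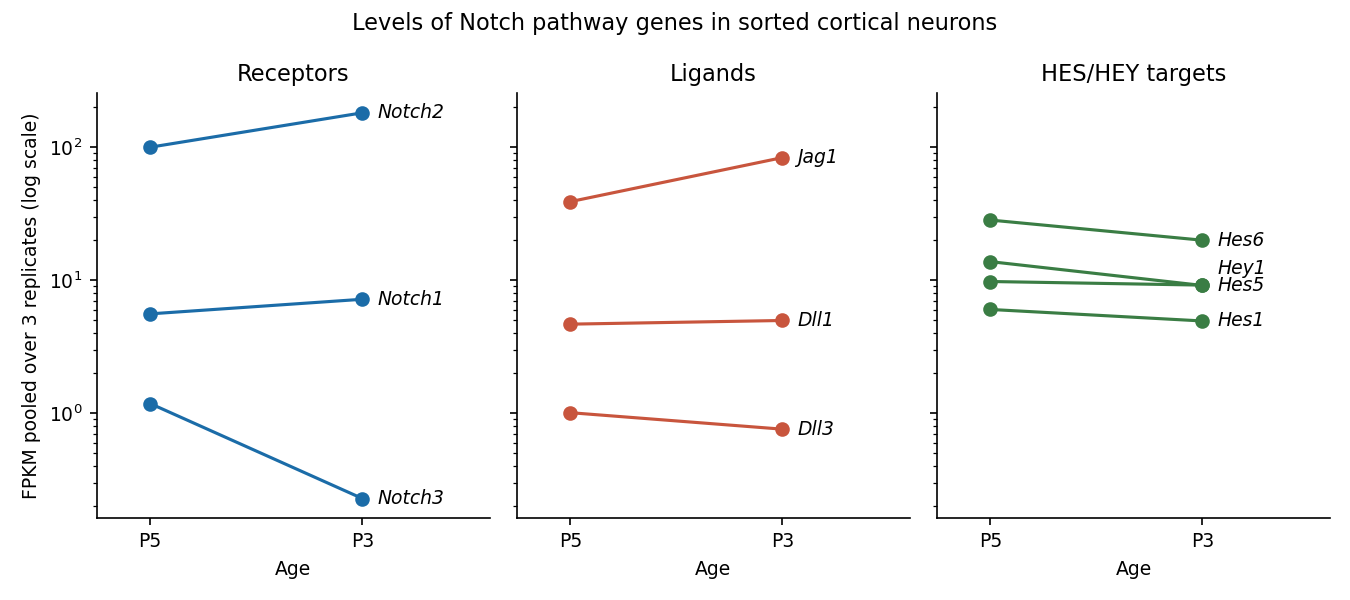
Pooled FPKM (log axis) of each receptor, ligand and HES/HEY gene at P5 and P3; a line joins the 2 values of a gene, and there are no error bars because the table holds no error per age. Notch2 (99.9 FPKM at P5 and 181 at P3) and Jag1 (38.9 at P5 and 83.4 at P3) lie above the rest, and Notch3 has the steepest line.

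The order of levels was largely shared by the ages. From high to low it ran Notch2, Jag1, Hes6, Hes5, Hey1, Hes1, Notch1, Dll1, Notch3 and Dll3 at P5, and Notch2, Jag1, Hes6, Hey1, Hes5, Notch1, Dll1, Hes1, Dll3 and Notch3 at P3. The range from highest to lowest was 99.1-fold at P5 and 795-fold at P3, where Notch3 set the low end. To judge the steps of that order, the error of a gene at 1 age was taken as its SE divided by the square root of 2, as if both ages shared it equally. By this rough measure none of the 9 steps between neighbours exceeded 1.96 combined SE at P5, and none did at P3. The result holds for errors not scaled by the robust spread of 0.66, which would make them smaller. The largest steps were the 3.96-fold one between Dll1 and Notch3 at P5 and the 6.51-fold one between Hes1 and Dll3 at P3. Neighbours such as Hes1 and Notch1 at P5 were 1.08-fold apart, and Hey1 and Hes5 at P3 were 1.01-fold apart.

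Set side by side, 6 of the 10 genes had higher FPKM at P5 and 4 had lower, while 55.6% of the 12313 genes with a ratio had higher and 44.4% lower FPKM. A log2 ratio of at least 1 in size, in either direction, occurred in Notch3 and Jag1, 2 of the 10, against 33.9% of the genes with a ratio. With a pseudocount of 1 FPKM, Notch3 had a ratio of 0.83 and so fell short of 1. The shares of the 10 genes lay near those of the whole table. Their median log2 ratio was 0.19, with -0.36 for receptors, -0.09 for ligands and 0.40 for HES/HEY genes, beside 0.13 for all genes with a ratio. The direction of the receptors depended on the summary, since the mean of the same 3 genes was 0.38. Receptors and ligands each mixed genes on both sides of 0. The ratios of the 10 genes were also compared pairwise, treating their errors as independent. In 0 of 45 pairs did the 95% interval of the difference exclude 0; the pair farthest apart relative to its error was Notch3 and Jag1, with ratios of 2.37 and -1.10 and an interval for their difference of -1.21 to 8.15. The errors used here were not scaled by the robust spread of 0.66, which would narrow these intervals. By the unscaled errors, different changes of receptors, ligands and targets were thus not shown.

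**Figure D2:**
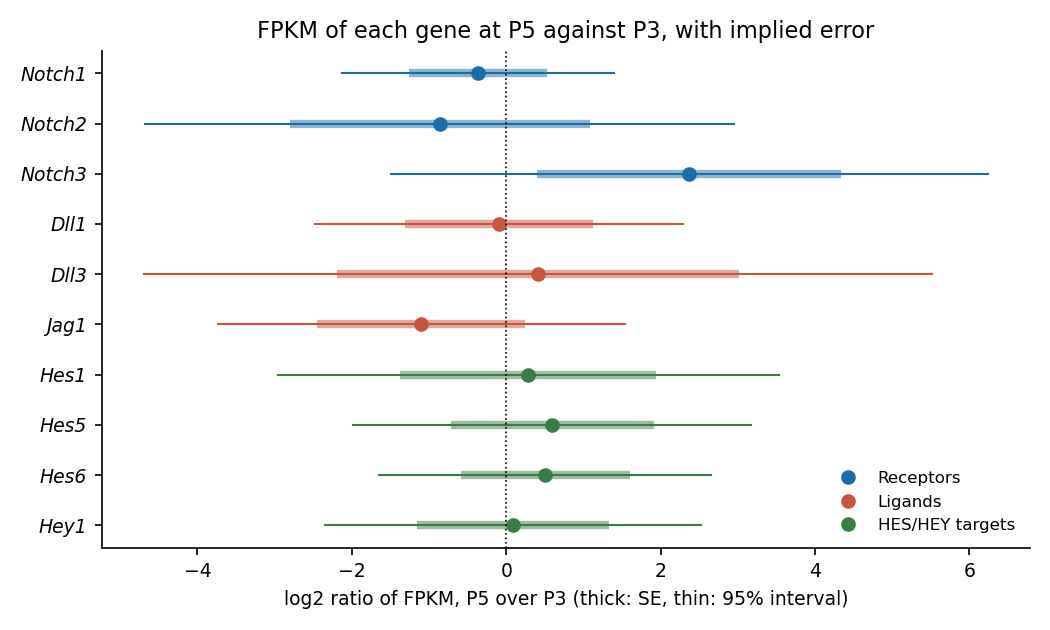
Log2 ratio of FPKM, P5 over P3, for each of the 10 genes (point), with its implied SE (thick bar) and 95% interval (thin bar), coloured by role. Every interval crosses 0; that of Notch1 (-2.13 to 1.40) is the narrowest and that of Dll3 (-4.69 to 5.52) the widest.

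The genes differed in how exactly their ratios were known. The SE was 1.33 in the median of the 10 genes and 1.38 in the median of all genes with a ratio. Notch2, in the top decile of genes by mean FPKM, had an SE of 1.95, larger than that of 95.3% of the 1232 genes of that decile, whose median was 0.98 and whose mean FPKM spans 42.6 to 11677. Jag1, in the same decile, had a larger SE than 86.9% of them. Notch1, at a mean of 6.38 FPKM, had one of the smaller SEs of its decile, where 2.03% of genes had a smaller one. For Notch2 the 95% interval covers folds between 0.0392 and 7.76, so the values are compatible with any change in that range and with none.

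**Figure D3:**
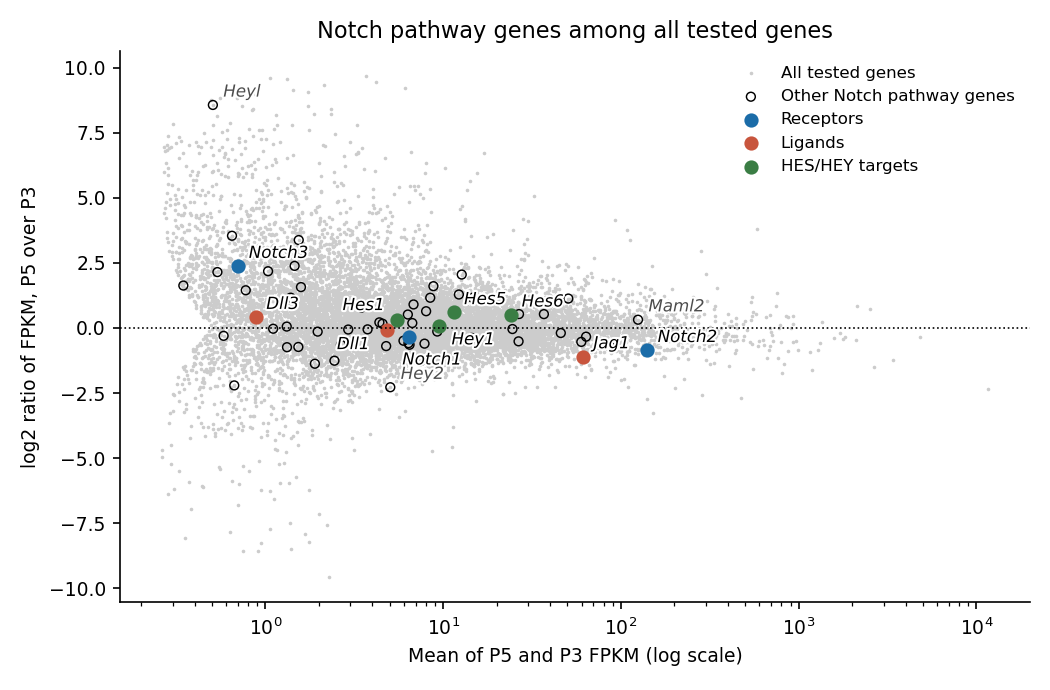
Log2 ratio of FPKM, P5 over P3, against the mean FPKM of the ages (log axis) for all tested genes above 0 at both ages (grey), the other Notch pathway genes (open circles) and the 10 genes (coloured by role). The 10 genes lie within the cloud, Notch2 and Jag1 at its abundant end and Notch3, at a ratio of 2.37, at its low end; Heyl, at 8.57, lies near the upper edge.

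Receptors, canonical ligands and HES/HEY genes outside the 10 were low, apart from Hey2 at P3. Notch4, a receptor of endothelium, had 0.134 FPKM at P5 and 0.0126 FPKM at P3 and was not tested, and the ligand Jag2 had 0.354 at P5 and 0.322 at P3, also untested. Dll4, the ligand that endothelial tip cells use, had 0.875 FPKM at P5 and 0.198 FPKM at P3 (log2 ratio 2.15, SE 2.63) at a locus that it shares with another row. Heyl, a HEY gene of smooth muscle and pericytes, had 1.01 FPKM at P5 and 0.00266 FPKM at P3. Its log2 ratio of 8.57 (SE 3.71) rests on that P3 value near 0; its p in the authors' deposited table was 0.0208 and its q 0.999988, so it did not pass. Hey2 had a log2 ratio of -2.28 (SE 1.56), the lowest among the other pathway genes, and Hey1 FPKM was 5.67 times that of Hey2 at P5 and 1.10 times at P3. Hes2 and Hes3 were listed at 0 at both ages, and Hes7 at 0.224 FPKM at P5 and at 0 at P3.

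Most markers of vessels had higher FPKM at P5 in these pools, as Notch3, Dll4 and Heyl had. So had most genes of low level, since FPKM at P5 was higher in 69.4% of the 1440 genes with a mean under 1 FPKM, whose median log2 ratio was 1.16. Hey1, which vessels share with glia and progenitors, had a log2 ratio of 0.09. Lower FPKM at P5 was found for Notch1, Jag1 and Hey2, with log2 ratios of -0.36 for Notch1, -1.10 for Jag1 and -2.28 for Hey2. Of the 7 endothelial markers tested with FPKM above 0 at both ages, 7 had higher FPKM at P5, with a median log2 ratio of 2.73. The summed level of all 10 was 82.3 FPKM at P5 and 36.1 FPKM at P3. That sum is mostly Slco1c1 (60.1 at P5 and 34.6 at P3), with Cldn5 (11.2 at P5 and 0.797 at P3) next. Tek, Tie1 and Ly6c1 were listed at 0 at P3, and Ly6c1 also at P5. Over all 22544 genes, 8800 were listed at 0 at P3 and 7607 at P5. Of 8 mural markers, 6 had higher FPKM at P5, with a median of 3.22 and a summed level over all 10 of 944 FPKM at P5 and 915 FPKM at P3, which is mostly Rgs5 (905 at P5 and 911 at P3). Rgs5 and Pdgfrb were the exceptions, with log2 ratios of -0.01 for Rgs5 and -0.38 for Pdgfrb. The pericyte gene Vtn had 25.1 FPKM at P5 and 1.40 at P3, while Acta2 and Myh11 of smooth muscle were listed at 0 at P3. The part of these cells in the Notch3, Dll4 and Heyl values was not tested.

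Glial and progenitor markers were set beside Notch2, Jag1 and the HES genes. Astrocyte markers had higher FPKM at P5 in 9 of 10 genes, with a median log2 ratio of 0.97. Their summed level was 3017 FPKM at P5 and 2379.6 FPKM at P3. Hes1, Hes5, Hes6 and Hey1 also had higher FPKM at P5, while Hey2 had lower (log2 ratio -2.28). Radial glia markers had lower FPKM at P5 in 9 of 10, with a median of -0.47. Their sum of 4663 FPKM at P5 and 5928 FPKM at P3 is mostly Fabp7 (4272 at P5 and 5388 at P3). Notch1, Notch2, Dll1 and Jag1 also had lower FPKM at P5, while Notch3, Dll3 and the 4 HES/HEY genes named first had higher. All 6 tested markers of intermediate progenitors had lower FPKM at P5 (median -0.97). They were led in level by Btg2 (121 at P5 and 184 at P3) and Gadd45g (7.49 at P5 and 12.1 at P3). The sum over all 8 was 145 FPKM at P5 and 233 FPKM at P3, which is mostly Btg2. The untested Neurog2 (0.443 at P5 and 0.0857 at P3) and Neurod4 (0.294 at P5 and listed at 0 at P3) had higher FPKM at P5. Intermediate progenitors are known to express Dll1, Dll3 and Hes6. Of these, Dll1 had lower FPKM at P5, and Dll3 and Hes6 had higher. Microglia markers had higher FPKM at P5 in 10 of 10 (median 5.14, sum 143 FPKM at P5 and 19.5 FPKM at P3), with Fcer1g at 30.4 at P5 and 0.488 at P3 and C1qb at 27.5 at P5 and 9.69 at P3. Oligodendrocyte lineage markers did so in 9 of 9 (median 2.33, sum over 10 of 308 FPKM at P5 and 140.5 FPKM at P3), with Olig1 at 50.9 at P5 and 48.1 at P3 and Mog listed at 0 at P3. None of these markers passed the Cuffdiff test at q = 0.05; of 81 tested genes over all marker lists, 6 had an unadjusted p under 0.05, against 0.770% of all tested genes. Their part in the values of the Notch genes was not tested. Of the neuronal lists, upper-layer markers were split, 5 higher and 5 lower (median -0.14, sum 515 FPKM at P5 and 498 at P3), and 7 of 8 tested pan-neuronal markers were higher (median 1.37, sum over 9 of 1226 FPKM at P5 and 619 at P3).

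The rest of the pathway was examined by role, from lists of 63 further genes, of which 54 had been tested. Of these, 0 passed at q = 0.05, FPKM at P5 was higher in 28 and lower in 26, and the median log2 ratio was 0.11. Heyl was the 1 gene of these 54 with an unadjusted p under 0.05 in the authors' deposited table, against 0.770% of all tested genes.

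In the nuclear complex, Maml2 held the place that Notch2 held among receptors. Maml2, a Mastermind coactivator, had 138 FPKM at P5 and 111 FPKM at P3 (log2 ratio 0.32, SE 1.94) and made up 98.4% of the summed Maml level at P5 and 97.3% at P3. Rbpj, the DNA-binding partner of the receptors, had 2.08 FPKM at P5 and 3.24 FPKM at P3. Snw1, an RBPJ cofactor, had 66.2 FPKM at P5 and 113 at P3, at a locus that 5 rows share. Of 8 tested genes of the complex, 2 were higher and 6 lower at P5. Corepressor genes were split 3 higher and 5 lower, with the deacetylase Hdac2 at 56.3 FPKM at P5 and 71.0 at P3 and the Groucho relative Aes at 31.6 at P5 and 21.8 at P3.

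Receptor processing genes were present at both ages. Adam10, the protease of the first cut after ligand binding, had 42.8 FPKM at P5 and 48.9 at P3. Adam17, at a shared locus, had 7.44 at P5 and 5.20 at P3. Of 7 gamma-secretase genes, which encode the complex of the second cut, 3 were higher and 4 lower at P5, with the subunit gene Ncstn, at a shared locus, at 20.5 FPKM at P5 and 4.94 at P3. Among glycosyltransferases, which modify receptors and tune their response to ligands, 4 of 5 had higher FPKM at P5. Poglut1 had 21.9 FPKM at P5 and 31.2 at P3, and the fringe gene Rfng 7.14 at P5 and 6.26 at P3. The other fringe genes, named after their values were seen, were lower in level, Lfng with 2.45 FPKM at P5 and 0.469 at P3 (log2 ratio 2.39, SE 2.37) and Mfng with 2.81 at P5 and 0.270 at P3 (3.38, SE 2.96).

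Genes acting on ligands and on turnover were also split. Of 6 genes of ligand endocytosis, the step that pulls on a bound receptor, 4 had higher FPKM at P5, with Epn2 at 17.4 FPKM at P5 and 7.13 at P3 and Neurl1b at 4.70 at P5 and 4.05 at P3. Inhibitors and turnover genes numbered 5 higher and 5 lower. Fbxw7, a ubiquitin ligase subunit that degrades the intracellular part of Notch, had 48.9 FPKM at P5 and 70.8 at P3, and Dtx4 of the Deltex family 24.2 at P5 and 24.9 at P3. Of the non-canonical ligands, Cntn1 and Dner, both neuronal surface proteins, had higher FPKM at P5, with 69.4 FPKM at P5 and 31.7 at P3 (log2 ratio 1.13, SE 1.05) and with 43.6 at P5 and 30.1 at P3 (0.53, SE 0.88). Cntn6 had 4.38 FPKM at P5 and 2.55 at P3, Dlk2 3.64 at P5 and 5.90 at P3, and Dlk1 0.0295 at P5 with 0 listed at P3. Fbxw7, Dner and Dlk2 each share their locus with another row.

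**Figure D4:**
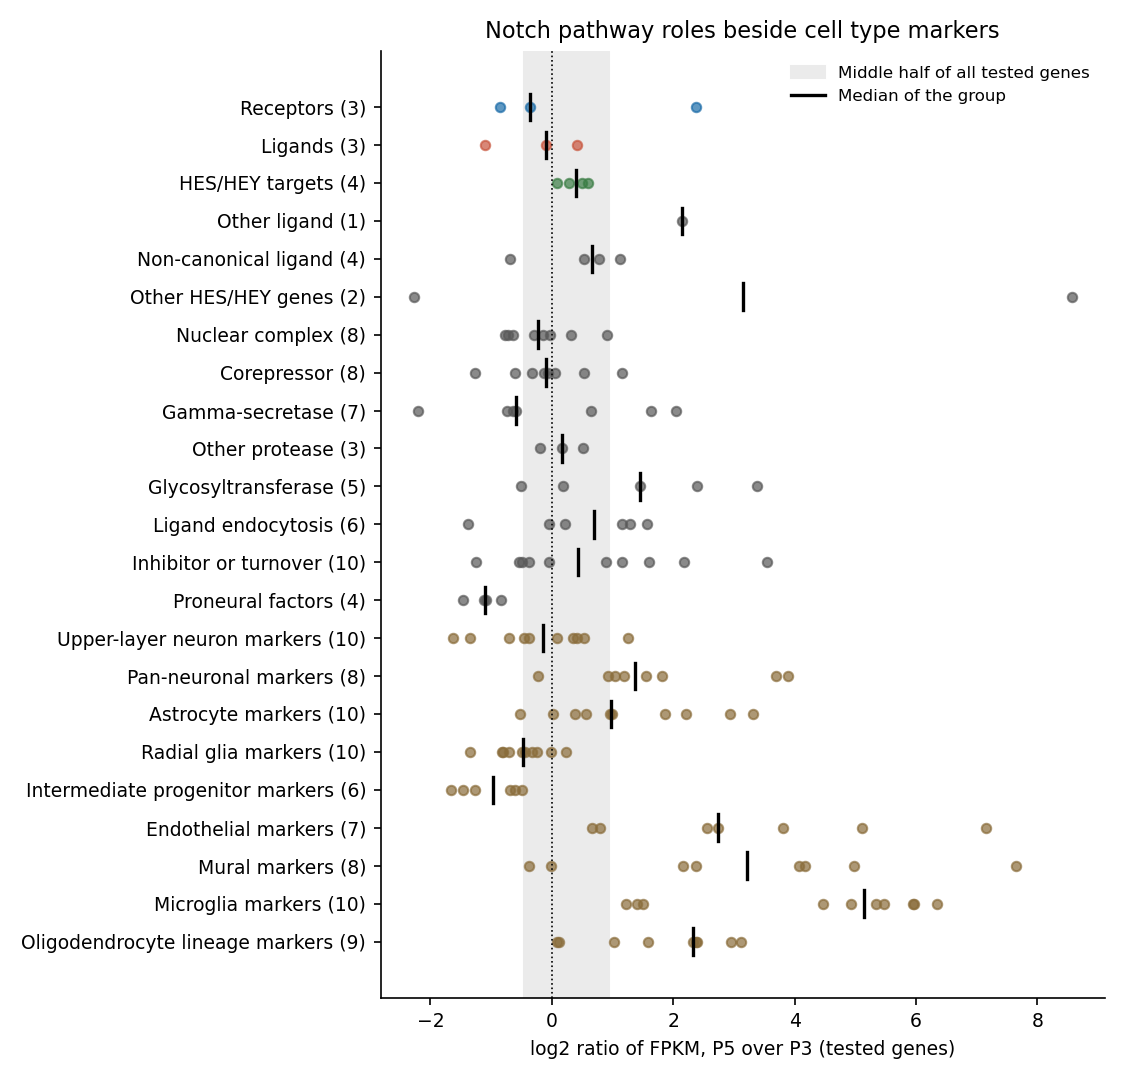
Log2 ratio of FPKM, P5 over P3, of each tested gene above 0 at both ages (points, number in brackets), by role in the Notch pathway and by cell type marker list, with the median of each group (black bar) and the interquartile range of all genes with a ratio (grey band). The medians of receptors (-0.36, where the mean is 0.38), ligands (-0.09) and HES/HEY genes (0.40) lie within the band, and those of endothelial (2.73), mural (3.22) and microglia (5.14) markers to its right. Also to its right lie oligodendrocyte lineage (2.33) and pan-neuronal (1.37) markers, glycosyltransferases (1.45), the other ligand (2.15) and other HES/HEY genes (3.15). Proneural factors (-1.10) and intermediate progenitor markers (-0.97) lie to its left.

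Genes downstream of Notch had ratios on both sides of 0. Of 10 genes reported elsewhere as Notch targets, a list that shares Heyl, Nrarp and Dtx1 with the pathway list and Gfap, Fabp7 and Sox9 with glial markers, FPKM at P5 was higher in 5 and lower in 5, with a median log2 ratio of 0.03. The most abundant were Fabp7, the brain lipid-binding protein of radial glia and astrocytes, and Nfia, a factor of astrocyte onset. Nfia, at a locus that it shares with another row, had 233 FPKM at P5 and 356 at P3. Nrarp, a target that feeds back on the receptor complex, was named after its values were seen and had 13.3 FPKM at P5 and 4.36 at P3 (log2 ratio 1.61, SE 1.29). Proneural genes, which HES proteins are known to repress, had lower FPKM at P5 in 4 of 4 tested, with a median of -1.10. Neurod6 had 109 FPKM at P5 and 237 at P3 (log2 ratio -1.12, SE 1.14). None of these genes passed the test at q = 0.05.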

How the data were processed

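RNA had been sequenced from GFP-labelled cortical neurons sorted at P5 and P3, with 3 replicates per age. TopHat, Cuffdiff 2.02 and the build mm9 are named in the submitters' processing notes, without roles. Per the file headers, expression is deposited as FPKM, with 1 value per age that the authors pooled from the replicates. The authors' p-value and q-value for each gene come from the same table, as do its log2 ratio and its test statistic, both handled as scores because a placeholder stands where an age is at 0. Values per replicate were not used here, so no spread between replicates could be computed, and the read depth is unknown. P-values rest on the error that Cuffdiff estimated for each gene, which could not be checked against replicates. Over all genes the statistic had a robust spread of 0.66, below that of a standard normal.

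The main test was the deposited Cuffdiff q at 0.05 over 12865 genes with status OK. Log2 ratios were computed from the FPKM of P5 over P3, without a pseudocount. In the 12313 tested genes above 0 at both ages, the deposited p differed by at most 2.8e-06 from a two-sided normal p of the statistic. The SE of a ratio was therefore its size divided by the statistic, and 95% intervals were 1.96 SE. Loci are on mm9, with starts read as counted from 0 and printed counted from 1. The scripts were run with Python 3.11.15, numpy 2.4.6, pandas 2.3.3 and scipy 1.17.1. Simulated data were used to test the SE, the adjustment and the calls, where the SE is recovered by construction.

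The 10 genes, the lists and the alternatives (other thresholds, pseudocounts, centring, filters) were chosen with earlier results of these data known. All 10 were described, with every further receptor, ligand and HES/HEY gene listed. In each other list the 2 genes with the highest mean FPKM were named, and outside the marker lists also any gene with p under 0.05. Other genes named were chosen after their values were seen. A few genes picked by this rule are not reported here. Promoter windows came from RefSeq on GRCm38.p6 and were used for sequence only.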

Additional observations from a re-analysis of the deposited data

How the results depend on the processing

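Across the alternatives run, 2 values changed sign. The log2 ratio of Hey1 was -0.04, against 0.09, when ratios were centred on the median of all genes with a ratio. This centring shifts every ratio by 0.13, which shows the cause, and leaves 5 of the 10 genes with higher FPKM at P5, against 6. Centring on genes of at least 10 FPKM at both ages shifts ratios by -0.06 and changed no sign. The count of genes passing the test was 0 at q of 0.05 and 0.01, with Bonferroni adjustment, with a minimum log2 ratio of 1, with a minimum of 1 FPKM at either age and at unadjusted p under 0.05. It was also 0 when the statistic was divided by its robust spread of 0.66, which calls 3 of 12313 genes (0.0244%); the lowest q of the 10 genes was then 0.811. The ratio of Notch3 was 2.37 as reported, 1.96 with a pseudocount of 0.1 FPKM and 0.83 with 1 FPKM. The value of the receptors was 0.38 as a mean, against -0.36 as a median. The mean lies above 0 through Notch3, at 2.37, beside -0.36 for Notch1 and -0.86 for Notch2. Leaving out rows that share a locus, an alternative chosen after seeing the data, left 24 higher and 20 lower among the other pathway genes, against 28 and 26. No paired analysis was possible because the table holds 1 pooled value per age, and no replicate could be left out for the same reason. Depth limits are unknown, since FPKM holds no counts.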
